A study of Mus musculus with 4 samples.

Results

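The replication-dependent histone genes are the 67 genes, of 32285 measured, whose symbols in the deposited feature lists begin with Hist1h, Hist2h, Hist3h or Hist4h. They comprise 6 genes for the linker histone H1, 18 for H2A, 18 for H2B, 12 for H3 and 13 for H4. They were followed in a B-cell library (B set) and a CD4+ T-cell library (T set) from mouse spleen, in cells with at least 1 unique molecular identifier (UMI) of Mki67, called dividing here, and in all other cells. Mki67 encodes the Ki-67 protein, a marker of cycling cells.

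The mice were C57BL/6NRj, and the labels print 1 genotype, Il2rbfl/fl with a heterozygous Cre allele, for both the control (Ctrl) and the knockout (KO) animals. Il2rb encodes the receptor chain that interleukin-2 and interleukin-15 both use, and the Cre allele drives the recombinase in the B lineage, to which the CD4+ T cells do not belong. Mice were either unimmunized (day 0) or taken 4 days after an intraperitoneal injection of sheep red blood cells (day 4). In each library, hashtag antibodies marked 4 pools, 1 for each genotype on each day, and how many mice entered a pool is not stated in the labels. Each group was therefore 1 pool, so days and genotypes were compared without a test, while dividing and other cells were compared across the 4 pools of a library. Where 4 pool values stand in a row, the day 0 pools come before the day 4 pools, and control before KO within each day. All intervals are 95% intervals and cover counting error only.

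Nucleosomes wrap DNA around H2A, H2B, H3 and H4, and H1 binds the linker DNA between them. The genes of this family supply histones when DNA is copied, so their mRNAs accumulate in S phase and are destroyed when replication ends. They are the animal mRNAs that normally end in a conserved stem-loop in place of a poly(A) tail, which the stem-loop binding protein SLBP recognises. These libraries were primed on poly-A RNA, and the share of histone mRNA they captured was not tested. A level is a count of 5′ tags, 1 UMI per captured molecule, scaled to a common total of counts (CPM), so it does not scale with transcript length. Many of the coding sequences are nearly identical, and no label says how reads that match several copies were assigned, so the split of counts among close copies is uncertain.

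The genes lay in 4 places on mm10. On chromosome 13, 54 Hist1 genes formed a block of 23 genes between positions 21715763 and 22043676 and a block of 31 genes between 23531050 and 23934851. The 10 Hist2 genes lay on chromosome 3 (96219865 to 96270132), 2 Hist3 genes on chromosome 11 (58948920 to 58956830) and Hist4h4 on chromosome 6 (136801553 to 136804415).

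In the GENCODE vM21 models, 46 of the 67 genes held the stem-loop within 150 bases after the stop codon, starting 21 to 58 bases after it (median 31). It was searched as 6 paired bases starting with GG around a loop of 4 bases, a form found in 0.625% of 18707 other coding genes. Of the 21 genes without it, 13 had a model that ended at the stop codon, so for these the letters were not in the annotation that was searched. Hist1h2af and Hist1h2ah had 1 and 2 bases after the stop codon, too few to hold it, and Hist2h3b and Hist1h1a had 37 and 48. Only Hist1h2bc, Hist2h2be, Hist1h2br and Hist1h2bq had a long stretch to search, of 742 to 2192 bases. The stem was GGCTCT in 34 genes, none of them an H4 gene. It was GGCCCT in 10 H4 genes and GGTCCT in 2 H4 genes. The most frequent loop was tttc, in 26 of the GGCTCT and 7 of the GGCCCT stem-loops. The following stem-loops, written 5′ to 3′ on the coding strand with both arms of the stem in capitals, belong to 7 members and show the 3 stems and 4 of the loops:
Hist1h1e: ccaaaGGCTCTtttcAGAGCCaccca
Hist1h2ae: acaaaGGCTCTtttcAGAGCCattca
Hist2h2ac: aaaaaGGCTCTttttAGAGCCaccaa
Hist1h3e: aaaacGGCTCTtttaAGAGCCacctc
Hist1h3g: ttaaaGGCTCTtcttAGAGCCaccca
Hist1h4d: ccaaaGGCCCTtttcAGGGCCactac
Hist1h4j: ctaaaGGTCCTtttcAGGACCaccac
The H1 and H2A genes Hist1h1e and Hist1h2ae shared the stem and the loop. The H3 gene Hist1h3g was the only member with a tctt loop.

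The 250 bases before the start were read for the 61 members that matched a RefSeq gene (GRCm38.p6) by symbol or synonym. A CCAAT box (CCAAT on either strand) was present in 50 of these 61 promoters (82.0%), against 34.4% of 26964 other promoters. All 6 H1, all 17 H2A and all 16 H2B promoters held it, against 8 of 10 H3 and 3 of 12 H4 promoters. TATAAA was present in 29 (47.5%, against 12.9% of the others). The octamer ATTTGCAT, a binding motif of OCT1, was present in 13 (21.3%, against 1.57%), of which 7 were H2A and 6 were H2B promoters. Some H2A and H2B genes lie head to head, with starts 176 to 306 bases apart, so their stretches overlap and the same letters can count for both. The octamer is shared in this way by Hist1h2ae and Hist1h2bg, by Hist1h2ah and Hist1h2bk, and by Hist1h2aa and Hist1h2ba. These counts are therefore not of independent promoters. The letters AAACACA, known as the AC box of H1 promoters, were in 5 of 6 H1 promoters and in 9 of the 61 (14.8%, against 6.2%). This last motif was added after the sequences had been seen. The 140 bases before the start of 4 genes show these arrangements, with the letters of the motifs, on either strand, in capitals:
Hist1h1e, chr13:23622559-23622698, minus strand: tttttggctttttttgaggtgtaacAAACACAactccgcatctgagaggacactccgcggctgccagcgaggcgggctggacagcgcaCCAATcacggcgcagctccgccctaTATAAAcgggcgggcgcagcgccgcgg
Hist1h2ae, chr13:23571221-23571360, minus strand: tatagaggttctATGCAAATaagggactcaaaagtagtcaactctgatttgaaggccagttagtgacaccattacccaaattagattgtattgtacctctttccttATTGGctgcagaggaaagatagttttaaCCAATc
Hist1h4d, chr13:23581428-23581567, plus strand: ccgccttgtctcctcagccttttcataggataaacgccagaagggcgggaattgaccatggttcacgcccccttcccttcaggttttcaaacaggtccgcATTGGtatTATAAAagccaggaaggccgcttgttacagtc
Hist1h3g, chr13:23535278-23535417, plus strand: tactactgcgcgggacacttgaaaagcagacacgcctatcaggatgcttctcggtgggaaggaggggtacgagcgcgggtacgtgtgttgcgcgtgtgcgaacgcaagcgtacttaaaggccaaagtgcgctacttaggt
Hist1h1e had an AC box, a CCAAT box and a TATA box in that order towards its start. Hist1h2ae had an octamer and CCAAT letters on both strands, Hist1h4d had a reversed CCAAT box next to a TATA box, and the Hist1h3g stretch held none of these letters.

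The filtered cells with 1 hashtag numbered 5477 (B set) and 7636 (T set), of which 222 and 371 were dividing. Dividing cells numbered 23, 31, 77 and 91 in the B set and 16, 32, 148 and 175 in the T set. They were 2.04%, 3.04%, 5.53% and 4.69% of B-set cells and 1.59%, 2.42%, 7.23% and 5.37% of T-set cells. After each cell was thinned to 1500 UMIs the shares were 0.629%, 1.38%, 2.74% and 1.76%, and 0.91%, 1.08%, 3.06% and 2.19%, with both day 4 pools still above both day 0 pools. The KO pools of the B set were within counting error of each other, with intervals of 0.758% to 2.31% on day 0 and 1.22% to 2.45% on day 4. Control day 0 of the B set was at 1.18% among B-lineage cells. By Top2a in place of Mki67, control day 0 of the T set was at 2.98%, next to 2.94% in KO day 0, so the order of the day 0 pools changed. Dividing cells were deeper, with medians of 13540 to 25650 UMIs against 4630 to 6048 in other B-set cells, and of 6055 to 13000 against 4482 to 5424 in the T set. The targeted gene Il2rb stood at 3.598, 2.984, 1.122 and 1.998 CPM in the B set, from 13 to 29 UMIs a pool, and at 85.9, 77.2, 109 and 104 in the T set. No label says whether its 5′ tags lie in the deleted stretch, so these levels do not check the labels. The 2 files share 84 cell barcodes, among 6339 and 9307.

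The labelled cell types were checked against marker genes. Among the dividing cells of the B set, 176 of 222 were of the B lineage by their markers. In dividing cells the B markers Cd79a, Cd79b and Ms4a1 summed to 1479, 3934, 1971 and 3145 CPM, against 6106 to 7025 in other cells. Myeloid markers reached 11670 in the dividing cells of control day 4 and 3116 in those of KO day 4, against 230.3 and 832 on day 0 and 384.7 to 1166 in other cells. Plasma cell markers stood at 2592 to 8650 against 751.6 to 1452, and erythroid markers at 175.7 to 974.1 against 14.64 to 1015. T markers did not exceed 12.12 CPM in any pool. In the T set, T markers stood at 2021 to 3055 in dividing and 2967 to 3059 in other cells, with these B markers at 9.66 or less in every pool.

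Summed over the 67 genes, histone transcripts stood at 5040, 4175, 5124 and 5347 CPM in dividing cells of the B set. The same sum was 583.9, 481.4, 374.9 and 450.6 in the other cells. Every dividing pool was above every other pool, with folds within a pool of 8.63, 8.67, 13.7 and 11.9. The T-set sum was 1437, 8165, 4711 and 6268 in dividing cells and 373.9, 342.3, 301.2 and 338.8 in other cells. The groups again did not overlap, but the folds ranged from 3.84 in control day 0, whose 16 dividing cells held 295 histone UMIs in all, to 23.9 in KO day 0. The mean log2 ratio over the 4 pools was 3.39 ± 0.33 (SD, n = 4) in the B set and 3.67 ± 1.18 (SD, n = 4) in the T set.

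**Figure D1:**
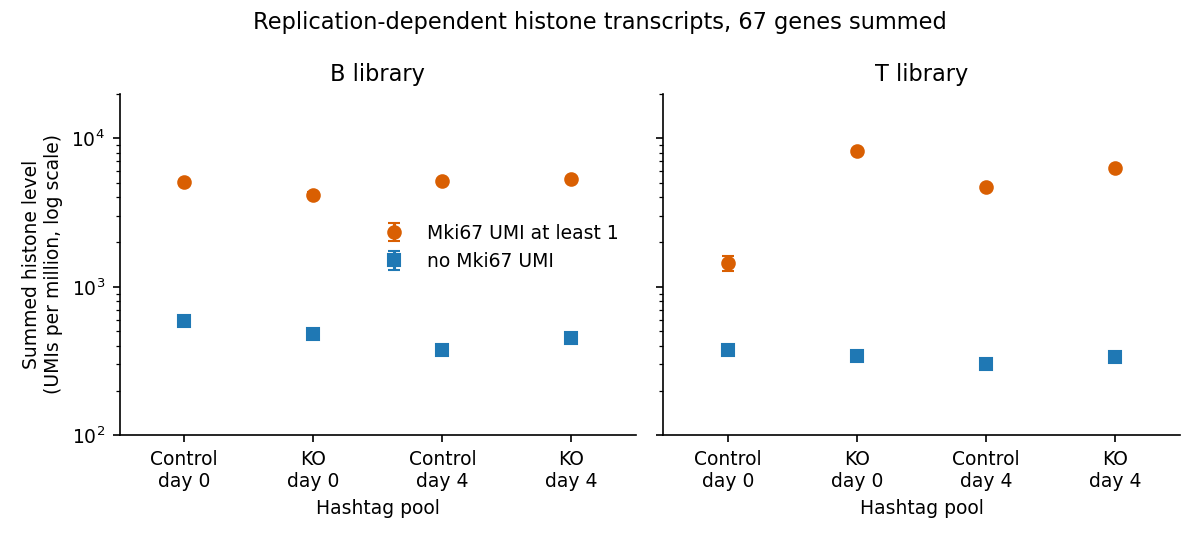
Summed level of the 67 histone genes in each hashtag pool, in CPM on a log axis, for dividing cells (circles) and other cells (squares) of each library; bars are 95% Poisson intervals. Each circle lies above the square of its pool, and the lowest circle is control day 0 of the T set at 1437 CPM.

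A minority of the dividing cells held a large share of these transcripts. The median dividing cell of the B set gave 0.0591%, 0.0484%, 0.0678% and 0.0875% of its UMIs to histone genes, against 0.0481%, 0.0397%, 0.0306% and 0.0359% for the median other cell. T-set medians were 0.0643%, 0.0600%, 0.0566% and 0.0528% against 0.0309%, 0.0263%, 0.0238% and 0.0275%. These medians differed far less than the sums. The tenth of dividing cells with most histone UMIs held 54.3%, 61.3%, 50.2% and 43.1% of the sum in the B set and 66.4%, 64.6%, 74.0% and 71.1% in the T set, against 31.98% to 35.74% in other cells. A single cell held 39.6% and 33.2% of the dividing sum in the control and KO day 0 pools of the B set, and 39.7% and 39.0% in those of the T set.

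Histone genes took at least 1% of the UMIs in 38 dividing cells of the B set (5, 4, 12 and 17 in the pools) and in 56 of the T set (0, 7, 18 and 31). Among other cells, 1 of 5255 and 0 of 7265 did so, the latter allowing up to 3 cells by the limit for a count of 0. Such cells held 36.9% of all histone UMIs of the B set and 57.5% of those of the T set. Their median histone share was 1.37% and 1.998%, and the highest was 2.87% and 4.23%. They drew on many members at once, with a median of 46 and 44 members detected per cell, against 6 and 4 in the remaining dividing cells. Their median depth was 23380 and 20140 UMIs, against 17880 and 10400. The boundary cuts a continuous range, since the highest cells below it stood at 0.999% and 0.958%.

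Detection alone separated the classes less than the level did. With each cell thinned to 1500 UMIs, 56.5%, 51.6%, 66.2% and 72.5% of dividing B-set cells had a histone UMI, against 52.7%, 47.2%, 40.8% and 46.0% of other cells. The day 0 intervals of dividing cells (34.5% to 76.8% and 33.1% to 69.9%) contained the values of the other cells. The T-set shares were 68.8%, 56.3%, 62.8% and 58.3% against 40.7%, 38.1%, 33.7% and 39.1%. Unthinned shares were 84.4% to 100% in dividing and 70.9% to 85.8% in other cells. The background, a T-cell gene (Cd3e) in the B set and a B-cell gene (Cd79a) in the T set, was found in at most 0.325% of thinned cells. The mean number of histone UMIs per thinned cell was 3.71 to 6.85 in dividing and 0.579 to 0.936 in other B-set cells, and 1.88 to 7.78 and 0.452 to 0.562 in the T set.

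Dividing and other cells were then compared gene by gene with edgeR's quasi-likelihood test on the 8 sums of a library, with the pool as a block and Benjamini-Hochberg adjustment over all genes tested. Of the 67 members, 55 passed the count filter in the B set, and 52 of them were called higher at an adjusted p under 0.05, where 22.7% of all 10582 genes tested were called higher. None was called lower (19.1% of all genes were), none had an unadjusted p under 0.05 in that direction, and DESeq2 also called none lower. Of the T-set members 50 were tested and 47 were called higher (17.4% of 10134 genes were), while 1 was called lower (19.4% were). Members whose counts lie only in dividing cells pass the filter because they differ, so further counts are given. Without the filter, 56 of the 65 members with any UMI were called higher in each library, against 13.0% of 18392 genes in the B set and 10.4% of 18615 genes in the T set. Among members with at least 10 UMIs in every sum of other cells, 34 of 37 were called higher in the B set and 27 of 30 in the T set. The share over all genes at this last filter is not given, so this count has no background beside it.

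The scale moved the background of the T set. With library totals in place of TMM factors, the median log2 fold change of all its genes went from -0.09 to 0.14, and the share of calls that were higher went from 47.3% to 73.4%, while the members called higher stayed at 47. In cells of the library's own lineage by markers, 50 of 52 tested members were called higher in the B set (15.3% of all genes were) and 42 of 45 in the T set (20.5% were). In cells with 5000 to 15000 UMIs, where few dividing cells remain, 14 of 28 tested members were called higher in the B set (1.29% of all genes were) and 25 of 28 in the T set (11.6% were).

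The linker histones H1 compact chromatin between nucleosomes. Hist1h1e, the member with most UMIs, stood at 485.4, 287.6, 453.1 and 459.3 CPM in dividing and 102.1, 90.51, 66.86 and 83.67 in other cells of the B set. Its log2 fold change was 2.28 ± 0.19 (SE; edgeR adjusted p = 0.000165) there and 2.83 ± 0.22 (edgeR adjusted p = 1.66e-06) in the T set. It was an abundant transcript of cells without Mki67 as well. Hist1h1b differed more. Its T-set levels were 29.22, 785.8, 357.2 and 558.7 in dividing and 2.201, 3.438, 3.651 and 2.227 CPM in other cells. The log2 fold change was 7.02 ± 0.33 (edgeR adjusted p = 1.87e-08) in the T set and 5.53 ± 0.21 (edgeR adjusted p = 5.93e-06) in the B set. Control day 0 was the lowest dividing pool of the T set by far, yet above all pools of other cells. Hist1h1c had the smallest difference of the tested H1 genes. Its B-set levels were 240.2, 119.7, 140.9 and 209.7 in dividing and 80.16, 75.27, 56.37 and 64.37 CPM in other cells, without overlap, and its log2 fold changes were 1.32 ± 0.18 (edgeR adjusted p = 0.0015) and 1.62 ± 0.19 (edgeR adjusted p = 5.04e-05). Hist1h1d (3.12 and 4.45) and Hist1h1a (5.75 and 5.68) were called higher in both libraries. The testis form Hist1h1t had 8 UMIs and was not tested.

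H2A pairs with H2B at the faces of the nucleosome, and its genes differed most. Hist1h2ae stood at 613, 789.5, 714.8 and 683.2 CPM in dividing and 23.67, 20.68, 13.66 and 16.99 in other cells of the B set. The T-set values were 68.18, 921.3, 593.8 and 735.8 against 7.482, 9.169, 8.014 and 8.629. The groups did not overlap in either library, and the log2 fold changes were 5.23 ± 0.21 (edgeR adjusted p = 7.75e-06) and 5.87 ± 0.33 (edgeR adjusted p = 7.31e-08). Hist1h2af was barely detected outside dividing cells, at 0.691, 0.181, 0.656 and 2.15 CPM in the B set, against 415.8, 117.7, 163.5 and 280.6 in dividing cells. Its log2 fold changes were 7.88 ± 0.36 and 8.84 ± 0.21, with edgeR adjusted p of 1.15e-05 and 9.77e-11. Hist1h2ap (5.21 and 6.18), Hist1h2ab (6.13 and 6.99) and Hist1h2ak (5.23 and 5.81) were called higher in both libraries. Hist2h2ac, in the Hist2 block, gave smaller log2 fold changes of 2.79 ± 0.20 and 3.21 ± 0.20.

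Some H2A genes did not follow. Hist3h2a was the only member called lower, in the T set, and is named after its values were seen. It stood at 0, 3.011, 0 and 1.985 CPM in dividing cells, from 6 UMIs in all, against 5.722, 4.912, 4.541 and 3.841 in other cells, a log2 fold change of -2.10 ± 0.65 (edgeR adjusted p = 0.0251). The call was lost with DESeq2 (adjusted p = 0.0559), with at least 2 Mki67 UMIs (edgeR adjusted p = 0.0636) and without the control day 4 pool (edgeR adjusted p = 0.201). In the B set Hist3h2a had too few counts to be tested, and its mean levels were in a ratio of 0.862. Hist2h2ab missed the threshold in the B set (log2 fold change 1.63 ± 0.64, edgeR adjusted p = 0.0791), where DESeq2 called it (1.86, adjusted p = 0.0295).

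H2B completes that dimer, and the log2 fold changes of its tested genes ranged from -0.13 to 5.78 in the B set. Hist1h2bc stood at 126.6, 66.24, 34.87 and 48.44 CPM in dividing T-set cells and 16.72, 12.77, 8.281 and 10.02 in other cells. Here control day 0 was the highest dividing pool, the reverse of its place for most members. The log2 fold change was 2.11 ± 0.17 (edgeR adjusted p = 1.68e-06), and 1.52 ± 0.21 (edgeR adjusted p = 0.00158) in the B set. Hist3h2ba and Hist2h2be were called in neither library. Hist3h2ba stood at 3.313, 9.651, 9.86 and 9.116 in dividing and 12.27, 9.25, 8.194 and 8.614 CPM in other B-set cells, with overlap. Its log2 fold changes were -0.13 ± 0.33 (edgeR adjusted p = 0.786) and 0.02 ± 0.21 (edgeR adjusted p = 0.964). Hist2h2be gave 0.47 ± 0.42 and 0.11 ± 0.44. The 2 Hist3 genes together were in ratios of 0.839 and 0.880, higher in dividing cells in 2 of 4 pools of each library.

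H3 and H4 form the core tetramer that is laid down first on new DNA. Hist1h3e, the H3 member with most UMIs, stood at 79.52, 59.84, 65.32 and 79 CPM in dividing and 16.24, 11.61, 11.36 and 11.01 in other B-set cells. Its log2 fold changes were 2.51 ± 0.14 (edgeR adjusted p = 3.09e-05) and 2.69 ± 0.15 (edgeR adjusted p = 6.81e-08). Hist1h3g was almost confined to dividing cells. It gave 6, 7, 48 and 32 UMIs there and 1 UMI in the 5255 other cells of the B set, and 3, 10, 30 and 47 against 2 UMIs in the 7265 other cells of the T set, so its fitted log2 fold changes of 8.08 and 7.81 depend on the prior count. All 10 tested H3 genes were called higher in each library.

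H4 genes differed least. Hist1h4d stood at 172.3, 79.14, 124.5 and 152.9 CPM in dividing and 27.99, 23.4, 20.21 and 25.6 in other B-set cells, with log2 fold changes of 2.41 ± 0.17 (edgeR adjusted p = 7.88e-05) and 2.36 ± 0.15 (edgeR adjusted p = 3.1e-07). Hist1h4n gave 1.71 ± 0.20 and 1.94 ± 0.21. Hist1h4c had the smallest called difference among H4 genes, 1.07 ± 0.21 (edgeR adjusted p = 0.00631) and 1.10 ± 0.22 (edgeR adjusted p = 0.00243). In the T set its dividing pools (9.74, 48.17, 27.81 and 31.37 CPM) overlapped the others (16.28, 15.39, 10.6 and 11.19), with control day 0 below. All 9 tested H4 genes were called higher in each library.

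Summed by histone type over all members, the ratio of mean levels was 28.9 and 45.4 for H2A, 11.03 and 13.78 for H3, 7.19 and 12.2 for H1, 7.12 and 8.07 for H2B, and 4.498 and 5.546 for H4, in the B and T libraries. H2A led and H4 came last in both. Neighbours in this order were close relative to the spread of the pools, since the mean log2 ratios in the B set were 2.86 ± 0.36 (SD, n = 4) for H1 and 2.83 ± 0.62 (SD, n = 4) for H2B. In other B-set cells H1 supplied 41.7% ± 1.0 (SD, n = 4) of histone UMIs and H2A 15.98% ± 0.52. In dividing cells H2A supplied 44.4% ± 2.3 and H1 28.7% ± 1.0, and the ranges over pools did not overlap. The H2A share of the T set was 15.8% in other cells and 43.2% ± 10.2 in dividing cells. H4 went the other way, from 20.01% to 8.57% in the B set and from 26.0% to 11.5% in the T set.

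**Figure D2:**
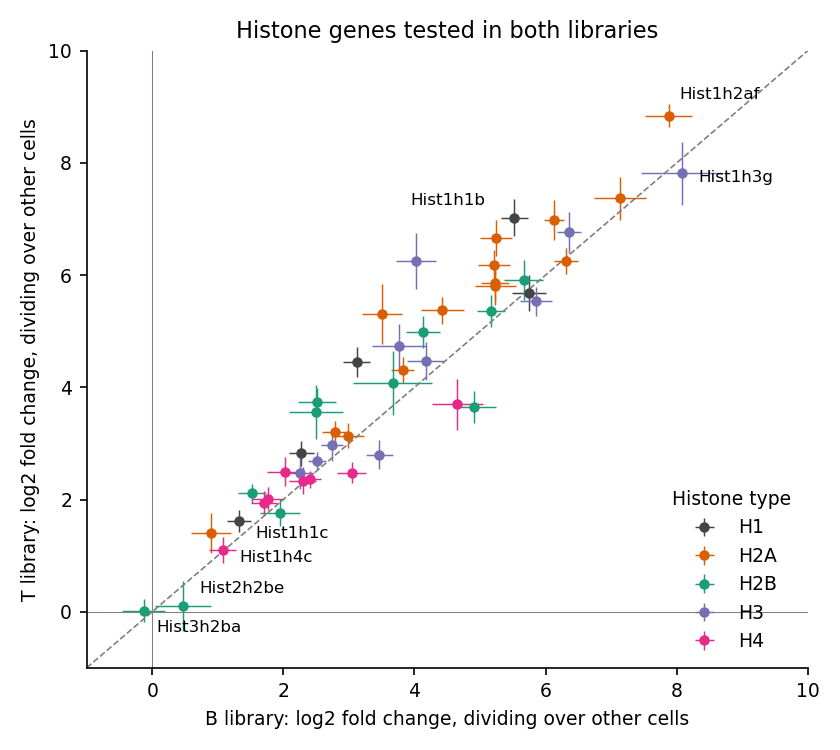
Log2 fold change between dividing and other cells in the B set (horizontal axis) and the T set (vertical axis) for the members tested in both, coloured by histone type; bars are 1 SE and the dashed line marks equal values. More members lie above the line, with the larger value in the T set, than below it. Hist3h2ba and Hist2h2be lie near 0 on both axes, and Hist1h2af and Hist1h3g lie highest.

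Over all assigned cells, the effect of dividing was not shown to differ between the 2 libraries for any member. In 1 edgeR fit over the 16 sums of both libraries, 0 of 59 members had an adjusted p under 0.05 for the difference, where 6.72% of 11419 genes did, and 9 members had an unadjusted p under 0.05. In lineage cells only, 1 of 58 members, Hist1h1b, was called as differing more in the T set, and no share over all genes is given for this fit. Hist1h3d had the lowest adjusted p of any member in the full fit, 0.0611 by edgeR, with log2 fold changes of 4.02 ± 0.30 and 6.25 ± 0.49. It is named after its values were seen.

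The annotated 3′ end divided the members. In 23 of them the gene model ran at least 100 bases past the stem-loop, and 12 of these had a poly(A) signal (AATAAA or ATTAAA) in their last 60 bases. In 23 others the model ended nearer to the stem-loop, with 1 such signal. The genes with a longer end held 69.5% of the summed histone level in other cells of the B set and 70.9% in the T set. In dividing cells they held 44.6% and 41.8%. The ratio of summed dividing to other levels was 6.69 and 8.94 for these genes. It was 16.7 and 29.0 for the genes that end near the stem-loop, and 21.29 and 31.98 for the 21 genes without a stem-loop in the model. That last class mixes models that end at or near the stop codon with longer ones. Hist1h1e, Hist1h1c, Hist1h4d and Hist1h4c, all abundant in other cells, have the longer end. Hist1h2ae has it too, with 151 bases past the loop, and did not share their small difference. Histone type was not balanced over these classes, since most H1 and H4 genes but few H2A genes have the longer end. The H1 genes Hist1h1e, Hist1h1c and Hist1h1d, all with the longer end, stood at 85.8, 69.0 and 30.6 CPM in other B-set cells. The parts of the end and of the histone type were not tested apart. The split used the annotation only, and which transcript ends the UMIs came from was not tested. At 300 bases past the loop, 18 genes had the longer end, with ratios of 4.94 and 7.03 and with 29.13% and 29.17% of the dividing level.

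**Figure D3:**
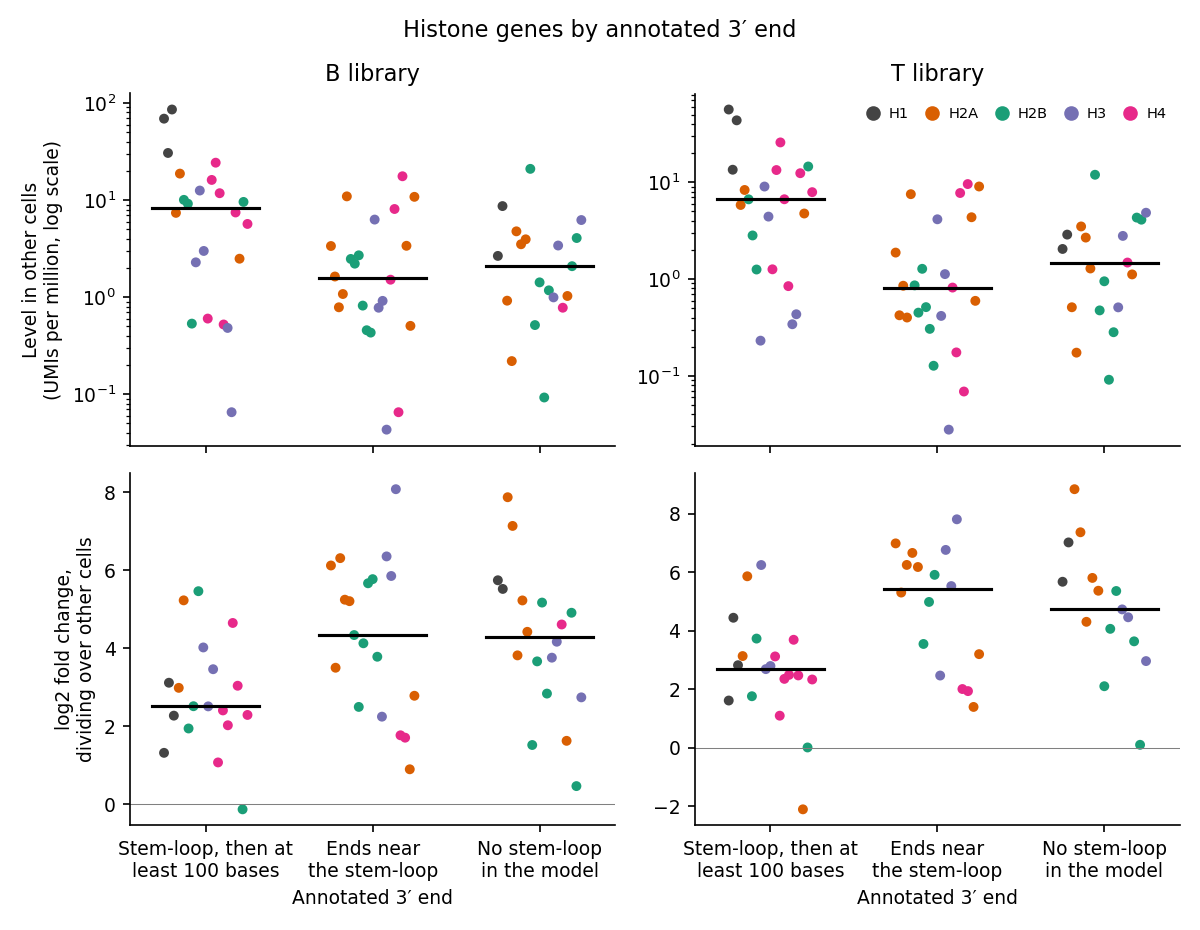
Members by annotated 3′ end in the B set (left) and the T set (right). The upper panels show the mean level in other cells (CPM, log axis, members at 0 not drawn), the lower panels the log2 fold change of tested members, each point a gene coloured by histone type and each bar the median; genes with a longer end sit higher in the upper panels and lower in the lower ones.

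In 12 cases an H2A and an H2B gene lay head to head, their starts 176 to 306 bases apart. In the 10 pairs with both genes tested in the B set, the H2A gene had the larger log2 fold change each time, and likewise in 8 of 8 pairs of the T set. The pairs Hist1h2ae and Hist1h2bg, 176 bases apart, gave 5.23 against 2.52 in the B set and 5.87 against 3.74 in the T set. Hist1h2bg is read from the opposite strand of the stretch printed above for Hist1h2ae, which holds the octamer for both. In Hist2h2ac and Hist2h2be the values were 2.79 against 0.47, and in Hist1h2ak and Hist1h2bn they were 5.23 and 5.18, closer than their SEs of 0.31 and 0.21. The H2A gene also had the higher mean level in dividing cells in 9 of the 12 pairs in the B set and 10 in the T set. The difference within a pair was not tested.

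**Figure D4:**
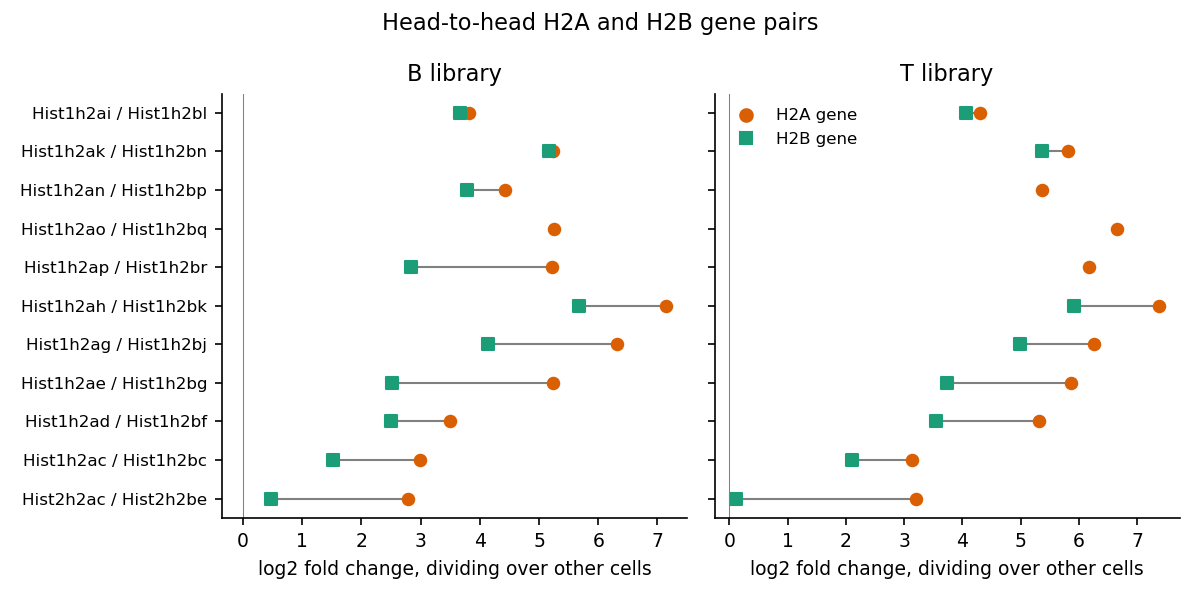
Log2 fold change between dividing and other cells for the H2A gene (circle) and the H2B gene (square) of each head-to-head pair with a tested gene, in the B set (left) and the T set (right); a line joins the genes of a pair where both were tested. The circle lies to the right of the square in all 10 joined pairs on the left and all 8 on the right.

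Within the dividing cells, histone levels were set against the balance of S-phase and G2/M genes (34 each), which include none of the 67 histone genes. Dividing cells with at least 10 UMIs of both lists together (176 and 295 cells) were cut into 3 ranges of equal size by the S-list share of those UMIs. In the B set the summed histone level was 5664, 7052 and 3143 CPM in the low, middle and high range of S-list share, with median depths of 22120, 29010 and 23030 UMIs. The T-set values were 5575, 8156 and 4493, so over pooled cells the middle range was highest in both. The median cell gave 0.3691%, 0.4825% and 0.05217% of its UMIs to histone genes in the 3 ranges of the B set. In the T set these medians were 0.08791%, 0.05375% and 0.06687%, lowest in the middle range, so the sum and the typical cell differed there. By pool the middle range gave 7443, 7533, 6696 and 7327 in the B set, below the low range in KO day 4, and 9582, 21150, 7072 and 8341 in the T set, where the day 0 values rest on 1 and 3 cells. Cut into 2 ranges, the lower and upper held 6515 and 4415 in the B set and 6108 and 5985 in the T set. The high range was below the low range in 3 of the 4 B-set pools (247.2, 1903, 4294 and 2334 against 4256, 5099, 4131 and 7818), the day 0 values resting on 3 to 8 cells. T-set pools gave 1276, 7139, 3013 and 6448 in the high range against 819.7, 7080, 5259 and 5788 in the low range, so the high range was above in 3 of the 4 pools, the reverse of the pooled cells, the day 0 values resting on 4 to 13 cells. Of 50 members with at least 20 UMIs in the B set, 9 were higher in the high than in the low range, and of 52 in the T set 12 were. Cells with at least 1% histone UMIs numbered 16, 17 and 5 in the 3 ranges of the B set and 17, 23 and 16 in the T set. The cuts are in a continuous share, with 29 and 30 B-set cells and 62 and 40 T-set cells within 5 percentage points of a cut.

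**Figure D5:**
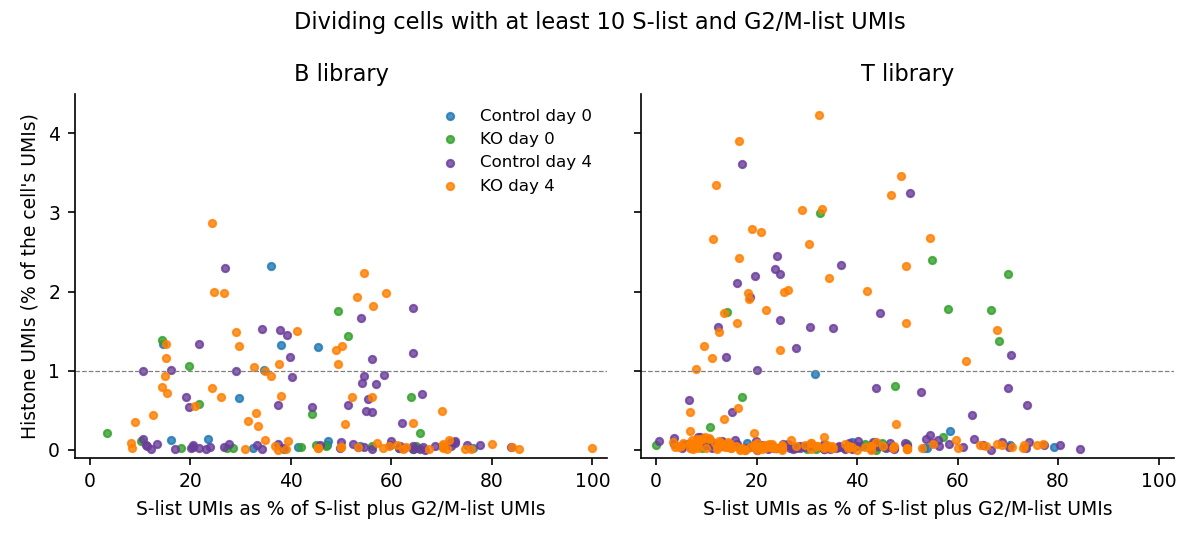
Each point is a dividing cell of the B set (left) or T set (right), coloured by pool; the horizontal axis is the S-list share of its S-list and G2/M-list UMIs and the vertical axis the share of all its UMIs in histone genes, with a dashed line at 1%. Most cells lie near 0, and those above the line spread over a wide range of S-list share.

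Day 4 was compared with day 0 in each genotype. Among dividing B-set cells the summed level was 5124 on day 4 and 5040 CPM on day 0 in control mice, a ratio of 1.02 (0.977 to 1.06). Of 50 members whose 2 sums held 20 or more UMIs between them, the filter used for all such counts below, 5 were at least 2-fold higher and 2 at least 2-fold lower, where 18.3% of all genes passed 2-fold either way. In KO mice the ratio was 1.28 (1.22 to 1.34), with 10 of 50 members past 2-fold upwards and none downwards (11.2% of all genes passed). Without the single richest cell of each sum the ratios were 1.34 and 1.67, and in B-lineage cells 1.14 and 1.79. The members moved apart: in control mice Hist1h2af stood at 163.5 on day 4 and 415.8 on day 0, a ratio of 0.393 (0.335 to 0.462), while Hist1h2be stood at 48.07 and 21.54, a ratio of 2.23 (1.26 to 4.32). In KO mice Hist1h2bb, at 70.9 and 19.3, was highest of the members with at least 50 UMIs, with a ratio of 3.67 (1.94 to 7.83).

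Among other B-set cells, the summed level was 374.9 on day 4 and 583.9 CPM on day 0 in control mice, a ratio of 0.642 (0.612 to 0.674). Of 39 members, 1 was above 1 and 7 were at least 2-fold lower, where 4.59% of all genes passed 2-fold. The median log2 ratio was -0.69 over members and -0.09 over all genes, and 22 intervals of members lay below 1. The lowest ratios were those of Hist1h2an, 0.342 (0.188 to 0.604), and Hist1h3i, 0.383 (0.208 to 0.688). In KO mice the summed ratio was 0.936 (0.894 to 0.981), with 1 of 45 members past 2-fold in each direction (3.82% of all genes passed).

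In dividing T-set cells, control mice gave 4711 on day 4 and 1437 CPM on day 0, a ratio of 3.28 (2.92 to 3.69). Between these sums, day 4 and day 0, erythroid markers stood at 36.76 and 370.1 CPM, T markers at 2956 and 2021 and myeloid markers at 498.1 and 14.61, and their part in the ratio was not tested. Of 51 members, 35 were at least 2-fold higher and 1, Hist1h2bc, was lower, at 34.87 against 126.6 (22.3% of all genes passed 2-fold). Most of these members passed the filter through the day 4 sum alone, so the count had to lean upwards, and 24 of the 51 intervals lay above 1. Of the 9 members with at least 10 UMIs in each sum, a filter chosen after seeing the data, 6 were at least 2-fold higher and 1 lower (9.91% of all genes passed). KO mice gave 6268 and 8165, a ratio of 0.768 (0.737 to 0.800), with 2 of 52 members past 2-fold in each direction (13.6% of all genes passed). Without the richest cell of each sum the KO ratio was 1.05, and the control ratio was 3.84. Of the members with at least 50 UMIs, Hist1h2ah was lowest in KO mice, at 30.97 against 147.5, a ratio of 0.210 (0.145 to 0.307). In other T-set cells the ratio was 0.806 (0.760 to 0.854) in control mice, with 5 of 35 members at least 2-fold lower and none higher (4.62% of all genes passed), and 0.9898 (0.942 to 1.04) in KO mice, with 1 of 42 members at least 2-fold higher and none lower (4.1% passed). Among members with at least 50 UMIs, Hist1h2bc was 1 of the 2 lowest of the control mice, at 8.281 against 16.72, as in their dividing cells. Members with fewer UMIs, such as Hist1h2bg at a ratio of 0.3495, were lower in these other cells.

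Ratios of KO to control were taken within each day, and they use the same pools as those between days. In dividing B-set cells the summed ratio was 0.829 (0.784 to 0.876) on day 0, with 9 of 43 members at least 2-fold lower and none higher (21.5% of all genes passed 2-fold). Hist1h2af was lowest of the members with at least 50 UMIs, at 117.7 against 415.8, a ratio of 0.283 (0.210 to 0.376). On day 4 the ratio was 1.04 (1.02 to 1.07), and 1 of 56 members, Hist2h4, passed 2-fold, at 100.3 against 48.48 (7.27% of all genes passed). In other B-set cells the ratio was 0.824 (0.783 to 0.868) on day 0, with 0 of 39 members past 2-fold (2.82% passed). On day 4 it was 1.20 (1.15 to 1.25), with 5 of 47 members higher and none lower (3.7% passed). With at least 10 UMIs in each sum, 1 of 40 members passed on day 4 (2.3% of all genes did). Other B-set cells of KO and control day 4 held erythroid markers at 1015 and 14.64 CPM and myeloid markers at 384.7 and 1166, and their part in the ratio was not tested. On day 4, 41 of the 47 members were above 1, and on day 0, 6 of the 39 were. On day 4, 13 intervals lay above 1 and 0 below, and on day 0, 6 lay below and 0 above. The median log2 ratio was 0.26 over members and 0.03 over all genes on day 4, and -0.26 and -0.02 on day 0. The members share the same pools, so they are not replicates. A single cell held 4.39% of the histone UMIs of the other cells of KO day 4.

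In dividing T-set cells the ratio was 5.68 (5.04 to 6.43) on day 0, against the control sum of 295 UMIs. There 28 of 31 members were at least 2-fold higher (12.7% of all genes passed), most of which passed the filter through the KO sum alone. Of the 9 members with at least 10 UMIs in each sum, 7 were at least 2-fold higher and none lower (5.9% of all genes passed). Without the richest cell of each sum the ratio was 4.93. Hist1h2ab, with 1 UMI in the control sum, stood at 406.5 against 4.87 CPM, a ratio of 83.5 (14.7 to 3321), and Hist2h4, at 129.5 against 48.7, had the lowest ratio of the members with at least 50 UMIs, 2.66 (1.32 to 5.93). On day 4 the ratio was 1.33 (1.30 to 1.37), with 4 of 57 members at least 2-fold higher and 1 lower (3.76% passed). Hist1h3d, at 46.46 against 17.91, was highest of the members with at least 50 UMIs. In other T-set cells the ratio was 0.916 (0.859 to 0.977) on day 0, with 2 of 32 members at least 2-fold lower (2.28% passed), and 1.13 (1.08 to 1.17) on day 4, with 0 of 42 past 2-fold (2.79% passed). Erythroid markers differed between these pools of other T-set cells (14.74, 1861, 938.3 and 8.907 CPM), and their part in the ratios was not tested.

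Genes that make, process and carry histones were described from lists. Of 23 tested genes for the control and processing of histone mRNA, 14 were called higher in dividing cells in the B set and 9 in the T set, with median log2 fold changes of 0.65 and 0.36 against -0.04 and -0.09 over all genes. The largest were those of cyclins E, which drive cells into S phase with CDK2, and of the S-phase activator E2f1: Ccne2 (5.17 and 3.90), Ccne1 (3.28 and 2.52) and E2f1 (2.71 and 3.24). Slbp, named for its role at the stem-loop, gave 1.54 ± 0.18 (edgeR adjusted p = 0.000735) and 1.84 ± 0.11 (edgeR adjusted p = 1.04e-07). Npat, a coactivator of histone genes, was called in neither library, at 0.40 ± 0.22 (edgeR adjusted p = 0.183) and 0.12 ± 0.19 (edgeR adjusted p = 0.691). The list holds E2f1, Cdk2, Ccne1 and Ccne2, all called higher in both libraries, and Slbp, which is also among the S-phase genes below. Because Mki67 set the classes, calls of such genes of cycling cells followed largely from that choice. The remaining T-set calls of this list were Cpsf2, Eri1, Snrpb and Ncbp2. Of 25 histone chaperones, 20 and 15 were called higher. The shares over all genes tested were 22.7% and 17.4%. Among them were Asf1b (4.05 and 4.24) and Chaf1a (3.41 and 3.36), which hand new H3 and H4 to replicated DNA, and Cabin1 was called lower in the T set (-0.40, edgeR adjusted p = 0.0403), a call lost with DESeq2 and with library totals. These counts moved with depth and scale. In cells with 5000 to 15000 UMIs, 1 of 22 processing genes and 0 of 22 chaperones were called higher by edgeR in the B set (5 chaperones had an unadjusted p under 0.05), and 3 of 21 and 8 of 23 in the T set, where 1.29% and 11.6% of all genes were called higher. With library totals, 16 processing genes were called higher in the T set, and without control day 4 the B-set count was 9.

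Of the 10 tested genes for histone variants that are made outside S phase too, 7 were called higher in each library. Over all genes tested, 22.7% and 17.4% were called higher. The medians of the 10 genes were 2.07 and 1.68. H1fx (4.97 and 3.90), H2afx (2.97 and 2.96), H2afz (2.94 and 2.18) and the centromeric Cenpa (2.80 and 3.14) were among the variants called higher. H3f3a and H3f3b encode the replacement histone H3.3. H3f3a was called lower in the B set (-0.51 ± 0.14, edgeR adjusted p = 0.0246) and higher in the T set (0.29 ± 0.08, edgeR adjusted p = 0.013), and H3f3b was called in neither (-0.02 and -0.10, the latter above 0 with library totals). No variant was called lower by edgeR in B-lineage cells, where 1 had an unadjusted p under 0.05 in that direction, or without either day 4 pool. All 34 S-phase genes were called higher in the B set and 33 of 34 in the T set, and all 34 G2/M genes in the B set and 32 of 33 in the T set. Both lists hold genes of cycling cells, and the classes were set by Mki67. Such calls therefore followed largely from the choice of classes and are a check on them only.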

How the data were processed

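The deposited matrices hold UMI counts per gene and cell for splenic B cells and CD4+ T cells, made by the authors with Cell Ranger 5.0.0 on mm10, per the submitters' processing notes. Single-cell 5′ libraries with TotalSeq-C hashtags were used, per the labels' protocols. A cell was kept when it showed 200 genes or more and no more than 10% mitochondrial counts. HTODemux (Seurat 5.3.0 under R 4.3.3) called the hashtags at a positive quantile of 0.99. Doublets by hashtag (568 B-set and 1007 T-set cells with several) were dropped, as were cells with none (173 and 553). No further doublet caller was run. Pools took their day and genotype from the hashtag text of the design, since the labels print 1 genotype for both.

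Counts were summed per pool and class, from 205348 to 17963708 UMIs a sum, and given as CPM (counts scaled to a common total). Dividing and other cells were compared with edgeR 4.0.16 (TMM factors, filterByExpr, pool as block, 3 residual degrees of freedom). The p-values measure the spread between pools, since nothing says how many animals a pool holds. The SE is the absolute log2 fold change over the root of the F statistic. Pool pairing comes from the design, since each pool gives both sums. Intervals are exact Poisson, conditional binomial and exact binomial at 95%. On simulated counts, 4-fold changes were recovered in 100% and 2-fold changes in 56% of genes in each library (10536 and 10028 genes), and 0.0677% and 0.0407% of unchanged genes were called. The simulation used the same dispersion for both libraries, no pool effect and 100 changed genes at each fold. The fitted common dispersions were 0.0489 (B set) and 0.01116 (T set), and far more genes were called in the data. These rates may therefore not hold for the fits, least of all that of the T set.

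Named members are the 15 with most UMIs over both libraries, those on opposite sides of the threshold, of which there were none, and in comparisons of single pools the 2 highest and 2 lowest ratios among members with at least 50 UMIs; of each list, up to 3 called genes with the largest change. Other members are named in groups of 5 or fewer or as stated. The lineage calls used 1 further B marker that is not reported here, and the B marker sum without it was added after the data were seen. The members, lists and markers were chosen with earlier results of these data known. Stem-loops came from GENCODE vM21 transcripts and promoters from RefSeq (GRCm38.p6). Alternatives covered other thresholds for dividing cells, hashtag calls, lineage cells, a depth range, filters, scaling, DESeq2 1.42.0, no pool block, and leaving out a pool or the richest cell. Python 3.11.15, numpy 2.4.6, pandas 2.3.3, scipy 1.17.1 and matplotlib 3.10.9 were used.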

Additional observations from a re-analysis of the deposited data

Results flagged for a closer look

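The summed histone level moved in opposite directions under the same contrast in several pairs of pools, and none of these differences was tested, since each group is 1 pool. In dividing B-set cells, KO over control was 0.828 on day 0 and 1.04 on day 4, and in other B-set cells it was 0.824 and 1.2. In other T-set cells KO over control was 0.916 on day 0 and 1.13 on day 4. In dividing T-set cells, day 4 over day 0 was 3.28 in control mice and 0.768 in KO mice, the former against 16 dividing cells of control day 0.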

How the results depend on the processing

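Of the alternatives to the values reported for comparisons, 113 stayed within the set limits, 41 moved and 1 reversed, and for single members 485 kept their call, 7 lost it and 1 gained it. Members called higher ranged from 51 to 54 in the B set and from 46 to 54 in the T set without 1 pool each, and without the pool as a block (no pairing of the sums) they were 52 and 47, as with it. In cells with 5000 to 15000 UMIs they were 14 and 25, the B-set mean log2 ratio was 1.98, and Hist1h1e (0.92), Hist1h4d (0.66), Hist2h2ac (0.77) and Hist1h4n (1.14) lost their B-set calls. Fewer genes were tested there. DESeq2 gained Hist2h2ab (1.86), and Hist3h2a lost its call in 3 settings (-1.81, -2.21 and -1.33). Histone mRNA processing genes called higher in the T set were 16 with library totals against 9, and in lineage cells 1 member was called between libraries.

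Shares of cells with a histone UMI followed the depth: thinned to 2500 UMIs, they averaged 74.1% and 63.3% in dividing and other B-set cells and 74.6% and 52.4% in the T set; at 1000 UMIs they were 35.9% in other B-set cells and 46.9% and 27.7% in the T set. Mki67-positive shares became 1.18% (control day 0) and 4.34% (control day 4) in B-lineage cells. With Top2a they were 6.96% and 5.78% in the day 4 B-set pools and 2.98% in T-set control day 0.

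Between days, B-set dividing members past the fold numbered 35 in lineage cells, 47 at 1.5-fold and 31 without the richest cells; B-set other cells gave 27 at 1.5-fold, and T-set other cells 15 at 1.5-fold and 3 without the richest cells. Between genotypes, 1.5-fold gave 26 (B dividing), 23 (B other) and 13 (T other), and leaving out the richest cells gave 6 (B dividing) and 2 (B other). Each of these counts adds up 2 comparisons. No share over all genes is given at these settings, so the counts have no background and are not a result about the members. With at least 10 UMIs in each sum, a filter chosen after seeing the data, the counts between days were 11 (B dividing, from 17) and 10 (T dividing, from 40), and between genotypes 1 (B other, from 5), 11 (T dividing, from 33) and 1 (T other, from 2). Of all genes at this filter, 11.7% and 5.12% (B dividing) and 9.91% and 6.08% (T dividing) passed between days, control before KO. Between genotypes, day 0 before day 4, the shares were 1.43% and 2.3% (B other), 5.9% and 1.83% (T dividing), and 0.966% and 1.54% (T other). Summed day ratios of dividing B-set cells were 1.14 (control) and 1.79 (KO) in lineage cells and 1.34 and 1.67 without the richest cells. In the T set, leaving out the richest cells gave 3.84 (control) and 1.05 (KO, reversed from 0.768), and 4.93 for KO over control on day 0. KO over control on day 4 was 1.26 and 1.42 in B- and T-lineage dividing cells. The causes were not tested.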
